A study of Mus musculus with 23 samples.

Results

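The genes described here are 31 lysosome genes, namely proteases, other hydrolases, membrane proteins, V-ATPase subunits and transcription factors of the lysosome. They were listed by name, with earlier results of these data known, and the rule that defines them uses no measured value. The Ensembl gene IDs of the deposited count tables were matched to these names through the mouse GRCm39 annotation. All 31 were found among the 56941 genes listed, and all 31 passed the filter on low counts that left 14488 genes for testing. RNA came from primary hippocampal neuron cultures prepared from newborn (P0) homozygous NEDD8cKO mice, in which LoxP sites flank exons of *Nedd8*, the gene of a ubiquitin-like modifier. Cultures were infected with a lentivirus expressing either RFP (the control group, RFP) or CRE recombinase with RFP (CRE), and RNA was taken after 12 days in culture according to the labels. Both groups therefore carried the floxed alleles and a virus, and they differed in the recombinase. The virus used a Synapsin1 promoter, which is active in neurons, so that other cells of the dish may have kept *Nedd8*, and in RNA from whole dishes fewer cells of one type and less RNA per cell cannot be told apart. The first number in a library name (CRE 1-3) is read here as the culture, and the second as the library within it. Nothing in the labels says whether libraries of one culture came from separate dishes or animals, so the p-values measure the spread between libraries, part of which may be technical.

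Lysosomes are acidic organelles in which hydrolases break down proteins, glycans and lipids delivered by endocytosis and autophagy. The V-ATPase pumps protons into the lumen, heavily glycosylated membrane proteins line it, and most hydrolases reach it by the mannose 6-phosphate route. The transcription factors TFEB, TFE3 and MITF bind a short palindrome in the promoters of many lysosomal genes, and inherited loss of single hydrolases causes storage diseases that often affect neurons.

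The comparison used 11 CRE and 10 RFP libraries with 7430401 to 17112815 counts each. CRE 3-3, with 1546796 counts, and RFP 3-2 were outside it, following the count table supplied with the study, whereas its methods name CRE 1-3 and CRE 3-3 as the libraries removed. Among the libraries compared, CRE 1-3 and RFP 2-4 stood apart. Relative to the other libraries, their levels were higher the more GC-rich a gene was (Spearman rho across 14346 genes 0.723 and 0.395, against -0.311 to 0.094 in the other 19), and only 0.261% and 3.43% of their counts were mitochondrial, against 7.0% to 11.1%. Results are therefore also given for the 19 libraries without these 4. *Nedd8* itself was at 44.1 to 76.0 CPM, a read count normalised for library size (median 62.4), in RFP and at 5.92 to 18.0 (median 12.1) in CRE, so the groups did not overlap and the labels held in all 21 libraries (log2 fold change -2.44, SE 0.17, adjusted p = 6.98e-11).

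To ask which of the 31 genes differed in level between the groups, CRE was compared with RFP by the quasi-likelihood test of edgeR. Benjamini-Hochberg adjustment was over all 14488 genes, and a gene was called at an adjusted p under 0.05. Of the 31 lysosome genes, 21 were higher and 0 lower in CRE. Of all genes tested, 16.4% were called higher and 13.8% lower. The median log2 fold change over the 31 genes was 0.61, against 0.02 over all genes tested. At a stricter threshold, a log2 fold change beyond 1.3 with a −log10 adjusted p above 6, 3 of the 31 were higher (*Ctsd*, *Ctsh* and *Lipa*), where 1.09% of all genes were. For 7 of the 31 every CRE library exceeded the highest RFP library, where this held for 2.64% of all genes tested. These 7 were *Ctsb*, *Ctsd*, *Ctsh*, *Hexa*, *Gaa*, *Grn* and *Tfe3*. *Ctsh* is in each of these counts. It passed the filter on low counts only through its CRE libraries, since it was near the limit of detection in RFP. Its place in the counts therefore follows in part from its high level in CRE. With the 19 libraries 22 of the 31 were higher and 1 was lower, beside 19.4% and 18.7% of all genes tested. With library totals alone as the scaling, which moved the median of all genes to 0.11, 23 of the 31 were higher and 0 lower, beside 20.4% and 10.6% of all genes tested.

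**Figure D1:**
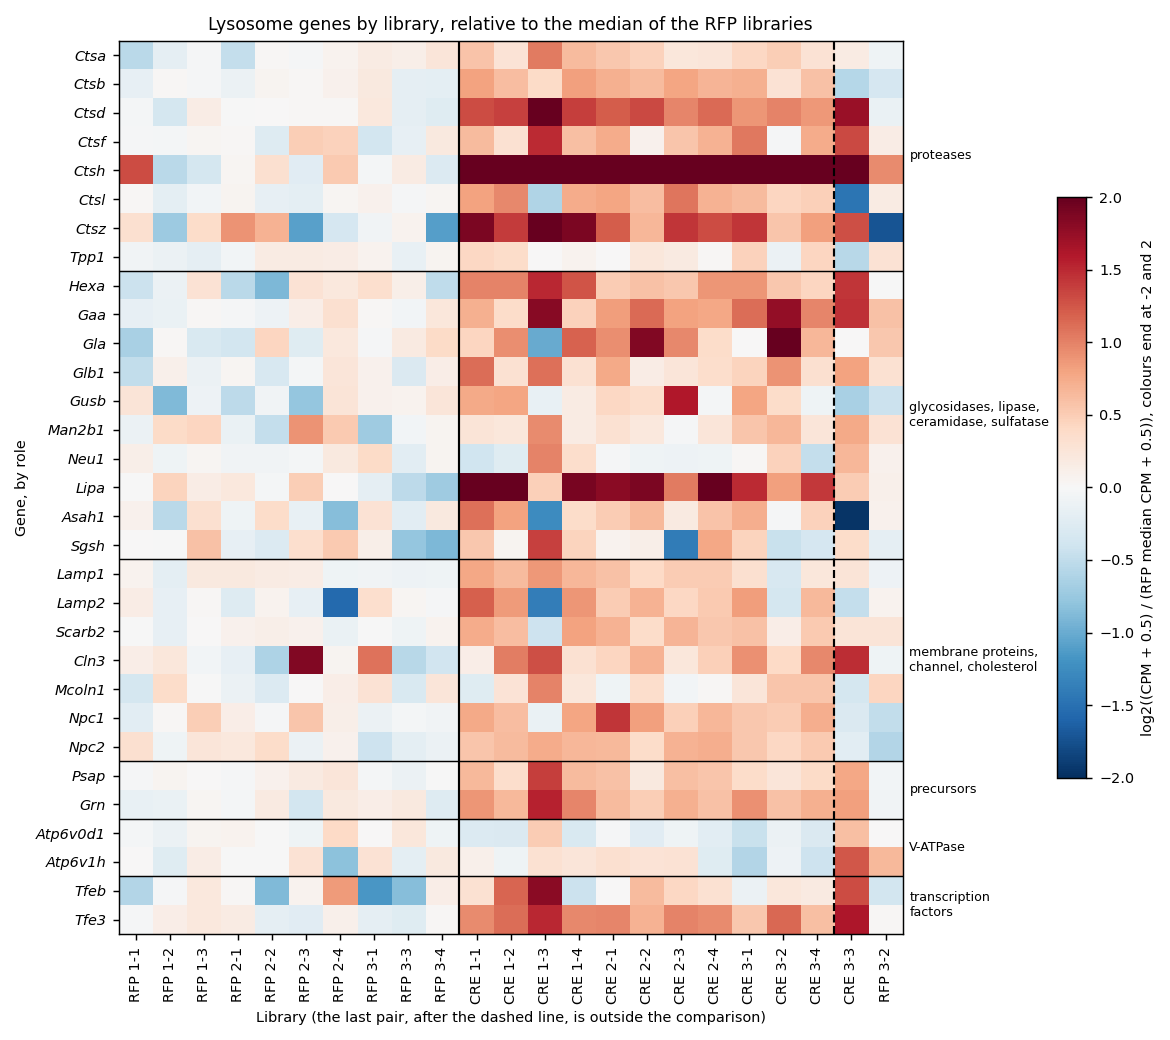
Heat map of the 31 lysosome genes (rows, by role) in the 23 libraries (columns), coloured by the log2 ratio of CPM to the median of the RFP libraries, each with 0.5 added. The CRE columns are red for most rows except the V-ATPase subunits, and among the 11 CRE libraries compared CRE 1-3 is the palest or bluest column for *Ctsl*, *Gla*, *Lipa*, *Asah1* and *Lamp2*.

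Because TFEB and TFE3 are among the genes, the promoters were searched for their palindrome. RefSeq promoter sequences (build GRCm38.p6, 250 bases before to 50 after each annotated start) were found for 26 of the 31 genes, and none was found for *Atp6v1h*, *Ctsb*, *Asah1*, *Npc1* and *Ctsh*. Both strands were searched for TCACGTG, which lies within the full palindrome TCACGTGA and itself holds the E-box CACGTG, so matches to the 3 motifs overlap. TCACGTG was found in a promoter of 10 of the 26 genes (38.5%), against 4.29% of the 27025 genes with a promoter sequence. TCACGTGA was found in 6 (23.1%, against 1.12%) and CACGTG in 12 (46.2%, against 8.09%). The holders of TCACGTG were *Atp6v0d1*, *Cln3*, *Ctsa*, *Ctsd*, *Gaa*, *Gla*, *Glb1*, *Lamp1*, *Mcoln1* and *Sgsh*. Of these 10, 6 were called higher, and of the 16 genes without the motif 12 were called higher. The median log2 fold change was 0.48 with and 0.64 without it. The promoters of the 4 called genes with the motif and the smallest p follow, 5′ to 3′ on the strand of the gene, to show where the motif sits. Capitals mark TCACGTG or its reverse complement CACGTGA. The windows are chr7:142387778-142388077 on the minus strand for *Ctsd*, and chr11:119267713-119268012, chr2:164833523-164833822 and chr9:114400828-114401127 on the plus strand for *Gaa*, *Ctsa* and *Glb1*.
*Ctsd*: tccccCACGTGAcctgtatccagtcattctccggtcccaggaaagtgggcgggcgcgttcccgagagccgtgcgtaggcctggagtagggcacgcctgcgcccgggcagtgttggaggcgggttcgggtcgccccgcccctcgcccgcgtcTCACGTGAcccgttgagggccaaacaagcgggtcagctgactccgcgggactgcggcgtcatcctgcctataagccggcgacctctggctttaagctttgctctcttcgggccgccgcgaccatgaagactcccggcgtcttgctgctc
*Gaa*: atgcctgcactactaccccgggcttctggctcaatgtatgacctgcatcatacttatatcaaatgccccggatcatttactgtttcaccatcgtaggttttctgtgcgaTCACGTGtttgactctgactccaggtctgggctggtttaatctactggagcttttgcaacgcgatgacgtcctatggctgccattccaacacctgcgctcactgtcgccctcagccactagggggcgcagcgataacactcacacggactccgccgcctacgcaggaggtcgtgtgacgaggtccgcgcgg
*Ctsa*: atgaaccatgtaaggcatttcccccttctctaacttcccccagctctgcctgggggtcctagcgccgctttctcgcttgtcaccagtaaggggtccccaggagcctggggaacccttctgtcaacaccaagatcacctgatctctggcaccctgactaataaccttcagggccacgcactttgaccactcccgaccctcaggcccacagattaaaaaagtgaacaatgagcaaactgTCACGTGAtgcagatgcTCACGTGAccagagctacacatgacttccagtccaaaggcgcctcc
*Glb1*: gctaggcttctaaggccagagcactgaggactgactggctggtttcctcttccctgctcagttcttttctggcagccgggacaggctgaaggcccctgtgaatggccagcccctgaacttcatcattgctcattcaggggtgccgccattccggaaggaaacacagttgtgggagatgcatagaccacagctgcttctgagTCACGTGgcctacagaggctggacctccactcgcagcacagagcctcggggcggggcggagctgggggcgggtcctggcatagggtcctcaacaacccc
In *Ctsd* and in *Ctsa* the motif occurred at 2 places, and at least 1 of them was the full palindrome. In *Gaa* and *Glb1* it occurred once, without the last base of the palindrome. For *Ctsa* the window is that of one of its annotated starts, with the first motif beginning at position -13 relative to it.

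Among the 8 proteases, 7 were higher in CRE and *Tpp1* was not called. *Ctsh* (ENSMUSG00000032359, chr9:89936205-89958148, GRCm39, plus strand), which encodes cathepsin H, an aminopeptidase, showed the largest difference of the 31. In RFP it was near the limit of detection, with 0 counts in 1 library, at most 3 counts in 6 of 10 and at most 14 in any. In CRE it had 78 to 454 counts in each library. CPM in RFP ran from 0 to 1.29 with a median of 0.228. In the CRE libraries of culture 1 it was at 25.4, 33.2, 33.6 and 32.7 CPM, in those of culture 2 at 15.6, 33.1, 13.0 and 20.6, and in those of culture 3 at 7.65, 8.0 and 7.04. The groups were far apart, and the CRE libraries of culture 3 were all below those of the other cultures. Over the pooled counts, 2675 in CRE and 37 in RFP, CRE was 72.1-fold higher (95% interval 52.2 to 103 for counting error only). The fitted log2 fold change was 5.97 (SE 0.49, adjusted p = 1.24e-09), and within the 3 cultures it was 6.16, 5.97 and 5.06. The tested genes within 100 kb of *Ctsh* did not pass the test, and their log2 fold changes were -0.13 (*Rasgrf1*, SE 0.22), -0.04 (*Morf4l1*, SE 0.16) and 0.19 (*Adamts7*, SE 0.46).

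*Ctsd* (ENSMUSG00000007891, chr7:141929646-141941775, minus strand) encodes cathepsin D, the main aspartic protease of the lysosome. Its lowest, median and highest levels were 137, 176 and 204 CPM in RFP and 321, 405 and 1033 in CRE. The highest CRE value was that of CRE 1-3, and the other 10 CRE libraries lay between 321 and 457. The log2 fold change was 1.37 (SE 0.17, adjusted p = 6.96e-07), and 1.17 with the 19 libraries. *Ctsb*, a cysteine protease and one of the most abundant of the group, rose from a median of 352 CPM (309 to 402) to 563 (433 to 624), a log2 fold change of 0.65 (SE 0.09, adjusted p = 2.50e-06). *Ctsz*, a carboxypeptidase, was low, with 1.92 to 9.26 CPM in RFP and 7.18 to 20.2 in CRE. Its log2 fold change was 1.41 (SE 0.27, adjusted p = 3.00e-04).

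The other proteases called had smaller differences. *Ctsl*, another cysteine protease, was at 79.5 to 96.3 CPM in RFP and at 123 to 191 in every CRE library but CRE 1-3, where it was at 59.8 (log2 fold change 0.67, SE 0.13, adjusted p = 3.43e-04). *Ctsf* went from a median of 45.0 to 70.2 CPM (0.61, SE 0.16, adjusted p = 0.00441), with 8 of 11 CRE libraries above every RFP library. *Ctsa*, the serine carboxypeptidase that also protects the β-galactosidase and sialidase it binds, went from 74.7 to 103 CPM (0.51, SE 0.12, adjusted p = 0.00135). *Tpp1*, the tripeptidyl peptidase lost in a form of neuronal ceroid lipofuscinosis, had medians of 73.2 and 82.7 CPM and a log2 fold change of 0.17 (SE 0.10, adjusted p = 0.179). Its 95% interval ran from 0.992-fold to 1.29-fold.

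**Figure D2:**
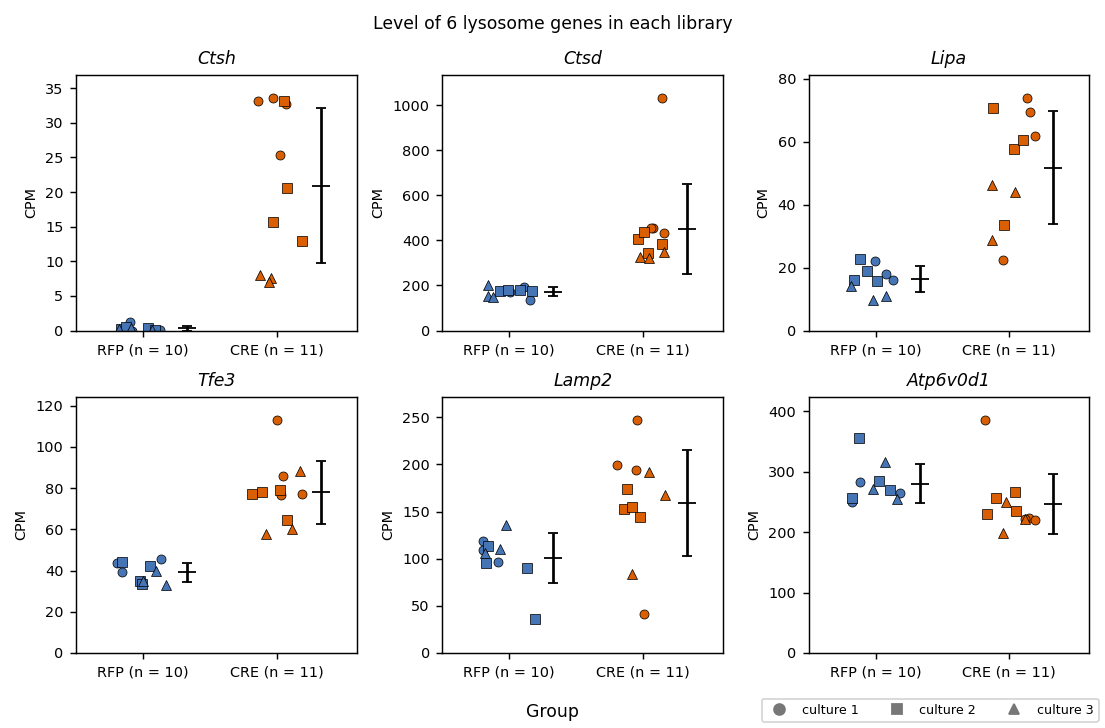
Level of 6 lysosome genes in CPM (vertical axes, from 0) in each RFP and CRE library, with a symbol for each culture and bars for the mean ± SD. The groups are apart for *Ctsh*, *Ctsd* and *Tfe3*, and overlap in 1 CRE library for *Lipa* and in 2 for *Lamp2*. For *Atp6v0d1* 7 of 11 CRE libraries lie below every RFP library, and CRE 1-3 and RFP 2-4 are the highest of their groups.

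Among the 10 hydrolases of glycans, lipids and sulfate esters, 6 were higher in CRE and 4 were not called. *Lipa* (ENSMUSG00000024781, chr19:34469712-34522163, minus strand) encodes the lysosomal acid lipase, which hydrolyses cholesteryl esters and triglycerides. It was at 9.69, 16.1 and 22.8 CPM (lowest, median, highest) in RFP and at 22.5, 57.8 and 74.0 in CRE. Only CRE 1-3, the lowest CRE library, fell within the range of RFP. The log2 fold change was 1.63 (SE 0.20, adjusted p = 8.44e-07), and in the 3 cultures it was 1.58, 1.58 and 1.76. *Gaa*, the glucosidase that degrades lysosomal glycogen, was at 105 to 148 CPM in RFP and at 153 to 416 in CRE with no overlap (log2 fold change 1.00, SE 0.16, adjusted p = 2.16e-05). Its highest CRE values were 416 in CRE 1-3 and 399 in CRE 3-2.

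*Hexa*, the α subunit of β-hexosaminidase, which degrades GM2 ganglioside, went from 9.33 to 22.8 CPM in RFP to 24.4 to 52.0 in CRE, again with no overlap (0.94, SE 0.17, adjusted p = 1.82e-04). *Gla*, the α-galactosidase, was spread widely, from 5.86 CPM in CRE 1-3 to 51.1 in CRE 3-2 around a median of 23.8, against 7.64 to 16.6 in RFP (0.97, SE 0.26, adjusted p = 0.00617). *Glb1*, the β-galactosidase, had medians of 14.2 and 18.4 CPM (0.64, SE 0.15, adjusted p = 0.00256). *Glb1* shares 4.21% of its exon bases with *Tmppe* on the same strand, and *Tmppe* had a log2 fold change of 1.07 (SE 0.27, adjusted p = 0.00302). *Gusb*, the β-glucuronidase, had medians of 12.0 and 15.7 CPM (0.64, SE 0.22, adjusted p = 0.0259). Its call was lost when any of CRE 1-1, CRE 1-2, CRE 2-3, CRE 3-1 or RFP 2-3 was left out, and leaving out CRE 2-3, at 37.5 CPM its highest library, gave 0.44 with an adjusted p of 0.0857, the largest of the 21 such fits.

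The 4 hydrolases that were not called were *Asah1*, *Man2b1*, *Neu1* and *Sgsh*. *Asah1*, the acid ceramidase, had medians of 43.9 CPM in RFP and 62.7 in CRE, and 8 of 11 CRE libraries exceeded the highest RFP library. CRE 1-3 was the lowest library of all at 18.1 CPM. The log2 fold change was 0.47 (SE 0.20, adjusted p = 0.0732) with all 21 libraries and 0.57 (adjusted p = 0.00225) without CRE 1-3. With all 21 libraries kept, *Asah1* was called when the GC trend was removed (0.52, adjusted p = 0.00127). The same held with counts summed per culture (0.50, adjusted p = 0.00799) and with library totals alone (0.56, adjusted p = 0.0303). The call thus depended on this library and on the processing. *Man2b1*, an α-mannosidase, had medians of 30.5 and 36.2 CPM (log2 fold change 0.20, SE 0.17, 95% interval 0.914-fold to 1.44-fold). *Neu1*, the sialidase that works in a complex with the products of *Ctsa* and *Glb1*, had medians of 47.8 and 45.1 CPM (0.04, SE 0.15, interval 0.839-fold to 1.26-fold). *Sgsh*, the sulfatase that degrades heparan sulfate, was low, with medians of 7.76 and 8.44 CPM and an interval of 0.835-fold to 1.74-fold.

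Of the 7 membrane, channel and cholesterol export genes, 5 were higher in CRE. *Lamp1* and *Lamp2* encode the most abundant glycoproteins of the lysosomal membrane. *Lamp1* had 300, 344 and 396 CPM (lowest, median, highest) in RFP and 276, 491 and 627 in CRE, where CRE 3-2 was below every RFP library and the other 10 above (log2 fold change 0.45, SE 0.11, adjusted p = 0.00327). The call of *Lamp1* was lost with counts summed per culture (0.41, adjusted p = 0.0544), without culture 1 (0.30, adjusted p = 0.0663) and without culture 2 (0.52, adjusted p = 0.0595). *Lamp2* had 36.2, 108 and 136 CPM in RFP and 41.0, 168 and 247 in CRE. The lowest library of each group was one of the 2 that stood apart, RFP 2-4 and CRE 1-3, while 9 CRE libraries exceeded the highest RFP library. The log2 fold change of *Lamp2* was 0.63 (SE 0.22, adjusted p = 0.0311). The call was lost without any of CRE 1-1, CRE 1-2, CRE 1-4, CRE 2-1, CRE 2-2, CRE 2-4, CRE 3-1, CRE 3-4 or RFP 2-1, at the most to 0.52 with an adjusted p of 0.0832 without CRE 1-1. With the 19 libraries it was 0.64 with an adjusted p of 2.85e-04.

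*Scarb2*, the receptor that carries glucocerebrosidase to the lysosome, went from a median of 197 to 296 CPM (0.50, SE 0.11, adjusted p = 0.00162), with CRE 1-3 the lowest CRE library at 147. *Npc1* and *Npc2*, which pass cholesterol out of the lysosome in turn, had log2 fold changes of 0.58 (SE 0.14, adjusted p = 0.00313) and 0.53 (SE 0.10, adjusted p = 2.43e-04). For *Npc2* the CRE libraries spanned only 117 to 152 CPM, and 10 of 11 exceeded the highest RFP library. *Mcoln1*, the calcium channel of the lysosomal membrane, had medians of 38.4 and 45.7 CPM (0.26, SE 0.14, adjusted p = 0.177). *Cln3*, lost in juvenile neuronal ceroid lipofuscinosis, had medians of 9.21 and 13.0 CPM, and RFP 2-3, at 34.5 CPM, was above every CRE library. Its log2 fold change was 0.28 (SE 0.27, adjusted p = 0.490), and 0.61 (adjusted p = 0.0408) without RFP 2-3.

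*Psap* and *Grn* encode precursors that are cut into smaller proteins, the saposins that help sphingolipid hydrolases and the granulins. *Psap* (ENSMUSG00000004207, chr10:60113431-60138380, plus strand) had the highest level of the 31 on either scale, with 1067, 1159 and 1370 CPM in RFP and 1331, 1702 and 3008 in CRE (log2 fold change 0.52, SE 0.12, adjusted p = 0.00145). It made up 30.9% to 35.4% of the summed CPM of the 31 genes in RFP and 27.0% to 39.5% in CRE. *Grn* (ENSMUSG00000034708, chr11:102321141-102327874, plus strand) was at 63.7 to 94.1 CPM in RFP and 116 to 239 in CRE with no overlap (0.81, SE 0.12, adjusted p = 1.18e-05). The highest CRE value of both genes was in CRE 1-3, and with the 19 libraries the log2 fold changes were 0.43 and 0.74.

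Neither of the V-ATPase subunits was called. *Atp6v0d1*, of the membrane sector, had 250, 271 and 355 CPM in RFP and 199, 230 and 385 in CRE, where CRE 1-3 was highest and no other CRE library passed 267. In 7 of the 11 CRE libraries it was below every RFP library. Its log2 fold change was -0.21 (SE 0.11, adjusted p = 0.155). Without CRE 1-3 it was -0.29 (adjusted p = 0.00301), and with the 19 libraries -0.25 (adjusted p = 0.00454), so that it was the member called lower there. *Atp6v1h*, of the cytosolic sector, had medians of 56.1 and 60.5 CPM and a log2 fold change of 0.03 (SE 0.14, interval 0.845-fold to 1.23-fold).

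Of the transcription factors, *Tfe3* (ENSMUSG00000000134, chrX:7628761-7641444, plus strand) was higher in CRE and *Tfeb* was not called. *Tfe3* was at 33.2, 39.5 and 45.7 CPM in RFP and at 57.7, 77.3 and 113 in CRE with no overlap. The log2 fold change was 0.98 (SE 0.11, adjusted p = 3.75e-07), and in the 3 cultures it was 1.01, 0.93 and 0.93. *Tfeb* was low, with 1.44, 3.85 and 7.36 CPM in RFP and 2.71, 4.85 and 14.6 in CRE, the highest values being those of RFP 2-4 and CRE 1-3. Its log2 fold change was 0.69 (SE 0.31, adjusted p = 0.100), and 0.89 (adjusted p = 0.0327) without RFP 2-4.

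**Figure D3:**
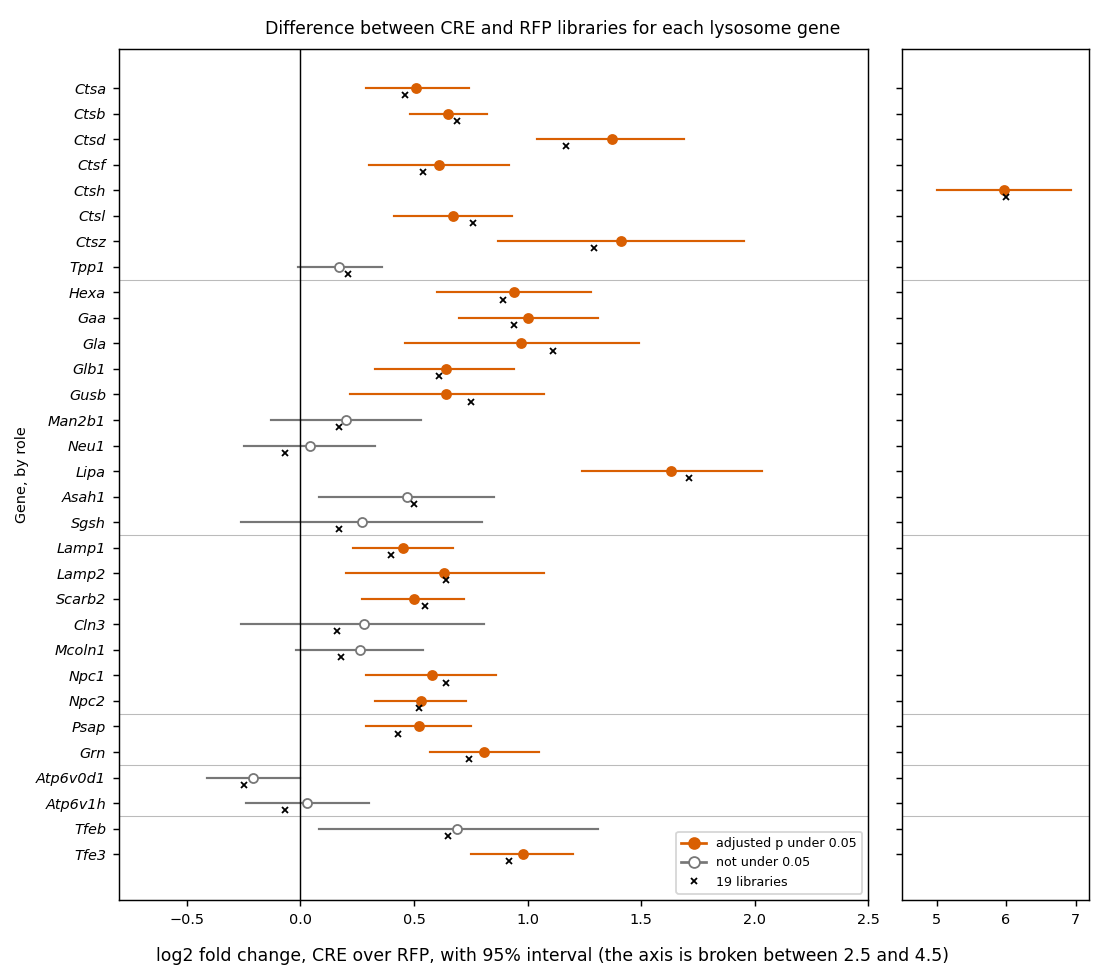
Log2 fold change of CRE over RFP for each of the 31 genes (rows, by role) with its 95% interval before adjustment. Filled points are called at an adjusted p under 0.05, open points are not, and crosses give the value with the 19 libraries. The 21 filled points lie between 0.45 and 5.97, and the lowest point is *Atp6v0d1* at -0.21.

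The difference between CRE and RFP was then compared among the 3 cultures. All 21 called genes were higher in CRE in each culture, as were 24 of the 31. No share over all genes tested is given beside these counts. The 21 had been called over these same libraries, so their agreement in sign follows in part from the call. The median log2 fold change over the 31 genes was 0.68 in culture 1, 0.51 in culture 2 and 0.59 in culture 3, against 0.01 to 0.03 over all genes tested. An interaction of group and culture was called for 0 of the 31 genes by edgeR (smallest adjusted p 0.977, and 0 genes with an unadjusted p under 0.05), where 0.0069% of all genes tested were called.

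Levels of different genes were compared per kilobase of exon. In RFP the order by median CPM per kilobase began with *Psap* (363), *Lamp1* (66.1), *Ctsd* (63.5), *Atp6v0d1* (59.5) and *Ctsb* (45.9), and ended with *Ctsz* (1.27), *Tfeb* (0.560) and *Ctsh* (0.0457). In CRE *Ctsd* was at 146, above *Lamp1* at 94.2, and *Ctsh* was at 4.13, beside *Glb1* at 3.99. Annotated exon length includes all isoforms, so these levels are approximate. The summed level of the 31 genes was 3370 to 3866 CPM in RFP (median 3620) and 4550 to 7624 in CRE (median 5261), and every CRE library was above every RFP library. CRE 1-3 had the highest sum. The summed V-ATPase members were at 297 to 387 CPM in RFP and 237 to 455 in CRE.

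To place the 31 genes in their pathway, 140 other genes in 6 lists were compared in the same way, and 131 of them were tested. In CRE, 44 of them (33.6%) were higher and 10 lower, with a median log2 fold change of 0.20. Over all genes tested, 16.4% were higher and 13.8% lower, and the counts of each list are to be read beside these shares. With the 19 libraries 51 (38.9%) were higher and 18 lower, beside 19.4% and 18.7% of all genes tested. Among 30 tested hydrolases and their modifiers 14 (46.7%) were higher and 2 lower, with a median of 0.43. Unlike that of the 31 genes, the summed level of this whole list overlapped between the groups, with medians of 1601 CPM in RFP and 1556 in CRE. For the other V-ATPase subunits the medians of the sums were 3873 and 3556, and in each remaining list the CRE median was the higher. *Fuca1*, the α-fucosidase, went from a median of 18.4 to 44.7 CPM (log2 fold change 1.3, SE 0.19, adjusted p = 7.82e-06). *Sumf1*, the enzyme that activates all sulfatases, had 0.80 (SE 0.13, adjusted p = 3.39e-05). *Ids*, the iduronate sulfatase, was lower, from a median of 608 to 320 CPM (-1.03, SE 0.19, adjusted p = 1.63e-04), and so was *Hgsnat*, which acetylates heparan sulfate (-0.71, SE 0.16, adjusted p = 0.00134).

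Among 24 other membrane proteins 10 (41.7%) were higher and 1 lower, with a median log2 fold change of 0.23. *Cd63*, a tetraspanin of late endosomes, had 1.07 (SE 0.12, adjusted p = 2.14e-07) and *Laptm4b* 1.08 (SE 0.13, adjusted p = 3.21e-07). The one called lower was *Lamp5*, a neuronal member of the LAMP family (-0.92, SE 0.18, adjusted p = 4.05e-04). Among 13 genes of enzyme sorting 4 (30.8%) were higher and 2 lower. The cation-dependent mannose 6-phosphate receptor *M6pr* (0.73, SE 0.10, adjusted p = 2.44e-06) and the sorting receptor *Sorl1* (0.70, SE 0.13, adjusted p = 1.28e-04) were higher. *Sort1*, the sortilin gene (-0.27, SE 0.08, adjusted p = 0.00954), and *Gnptab*, which begins the mannose 6-phosphate tag (-0.38, SE 0.11, adjusted p = 0.0128), were lower.

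Of 17 other V-ATPase subunits tested, 2 (11.8%) were higher and 3 lower, beside 16.4% and 13.8% of all genes tested. Their median log2 fold change was -0.03. With the 19 libraries 2 were higher and 6 lower, beside 19.4% and 18.7% of all genes tested. *Atp6v1g2*, the neuronal form of the G subunit, was at 287 to 341 CPM in RFP and 133 to 237 in CRE with no overlap (-0.77, SE 0.10, adjusted p = 1.01e-06). *Atp6v1d* had -0.30 (SE 0.10, adjusted p = 0.0183), *Atp6v0a2* 0.34 (SE 0.11, adjusted p = 0.0168) and *Atp6v0e* 0.43 (SE 0.14, adjusted p = 0.0215). The call of *Atp6v0a2* was lost without any of CRE 1-2, CRE 1-4 or CRE 2-1, and that of *Atp6v0e* without any of CRE 1-1, CRE 1-4, CRE 2-2 or CRE 3-4, at log2 fold changes of 0.29 and of 0.36 to 0.38. The call of *Atp6v1d* was lost in 10 alternatives, and with the GC trend removed its log2 fold change was -0.14 (adjusted p = 0.489).

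Of 18 genes of the MiT factors and of nutrient sensing at the lysosome, 4 (22.2%) were higher and 0 lower. Over all genes tested it was 16.4% and 13.8%. *Mitf*, of the same family as *Tfeb* and *Tfe3*, went from a median of 5.21 to 12.9 CPM (1.31, SE 0.23, adjusted p = 1.11e-04), and *Flcn*, the folliculin gene, had 0.60 (SE 0.12, adjusted p = 3.43e-04). Of 29 autophagy genes 10 (34.5%) were higher and 2 lower, with a median log2 fold change of 0.24. *Sqstm1*, the p62 receptor, went from 333 to 540 CPM (0.69, SE 0.10, adjusted p = 4.80e-06) and *Wipi1* from 41.9 to 87.4 (1.08, SE 0.13, adjusted p = 5.41e-07). *Ulk2*, a kinase that starts autophagy, had -0.56 (SE 0.11, adjusted p = 2.43e-04), and *Gabarap*, an LC3-like protein, -0.26 (SE 0.09, adjusted p = 0.0324). The call of *Gabarap* was lost without any of RFP 2-2, RFP 2-4, RFP 3-1, RFP 3-3 or RFP 3-4, with adjusted p from 0.0525 to 0.0582.

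**Figure D4:**
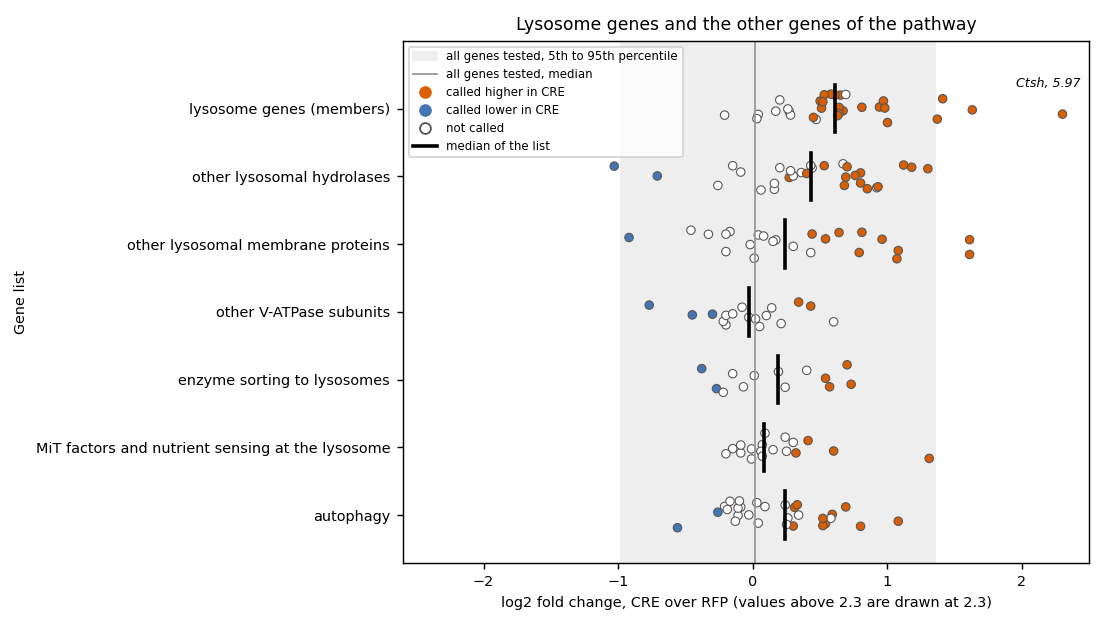
Log2 fold change of CRE over RFP (horizontal axis) for each tested gene of the 31 lysosome genes and of 6 other lists, with the median of each list as a black bar and the middle 90% of all genes tested in grey. The 31 genes and the other hydrolases sit furthest to the right, with medians of 0.61 and 0.43, and the other V-ATPase subunits lie around -0.03.

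Several of the 31 genes are abundant in microglia and other glia, so markers of these cells were read in the same libraries. Of 14 microglia and macrophage markers found, 2 passed the filter on low counts. Their summed level was 1.33 to 6.64 CPM in RFP and 0.342 to 8.42 in CRE. *Siglech* was at 0 in every library compared, and *Cx3cr1* was at 0 in every CRE library and at most at 0.830 CPM in RFP. *Trem2* and *C1qb* did not pass 0.419 CPM in any library compared, and 9 of the 14 had a median of 0 in both groups. *P2ry12*, which was not tested, had medians of 0.125 CPM in RFP and 0.587 in CRE, and reached 4.68 and 2.9. *Tyrobp*, *Ptprc* and *Laptm5* reached 0.31, 1.44 and 0.999 CPM in RFP and 1.52, 1.58 and 1.64 in CRE. *Ctss*, the cathepsin typical of microglia, had at most 7 counts in an RFP and 9 in a CRE library. *Tmem119* was called higher, from a median of 0.111 to 1.83 CPM (log2 fold change 3.21, adjusted p = 5.17e-04). It passed the filter mainly through its CRE libraries. The other marker tested, *Csf1r*, was not called and had medians of 1.1 CPM in RFP and 0.273 in CRE (log2 fold change -1.02, SE 0.61, adjusted p = 0.223). Markers of other cells did differ, beside 16.4% of all genes tested called higher and 13.8% called lower. Of 10 neuron markers 7 were lower and 1 higher in CRE, and their sum was 6813 to 8231 CPM in RFP and 3657 to 6719 in CRE without overlap. Of 10 astrocyte markers 5 were lower and 2 higher (sums of 3695 to 7940 CPM in RFP, median 6150, and 1641 to 5277 in CRE, median 4736). Of 9 tested oligodendrocyte lineage markers 6 were lower and 0 higher. Their sums were 678 to 1975 CPM in RFP (median 1578) and 447 to 1981 in CRE (median 832), where CRE 1-3 was the highest. Of 9 tested endothelial and mesenchymal markers 2 were higher (*Rgs5* and *Pdgfrb*), 1 was lower and 6 were not called. The lower one was *Kdr* (log2 fold change -1.22, SE 0.43, adjusted p = 0.0346). The sums were 24.6 to 188 CPM in RFP (median 95.1) and 85.4 to 486 in CRE (median 287). *Rgs5* alone went from a median of 21.5 to 147 CPM, a large part of this difference. The part of these shifts in the levels of the lysosome genes was not tested.

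Reads could also be shared between genes, since the exons of 22 of the 31 genes overlap those of another gene, mostly on the opposite strand. The libraries were stranded, but the strand setting of the counting is not given in the sources used here. For *Ctsz*, 29.2% of exon bases overlap *Nelfcd*, which had a higher median count (389 against 88) and a log2 fold change of -0.36 (SE 0.17, adjusted p = 0.119). For *Grn* it was 32.8% with *Fam171a2* (-0.16, SE 0.28), for *Gusb* 11.9% with *Vkorc1l1* (-0.34, SE 0.20), and for *Ctsb* 15.4% with *Fdft1*, which was lower in CRE (-0.73, SE 0.12, adjusted p = 5.67e-05). None of these 4 neighbours was called higher. *Tmppe*, which overlaps the called gene *Glb1* on the same strand, was called higher (1.07, SE 0.27, adjusted p = 0.00302). The part of shared reads in the calls was not tested. *Neu1* shares 7.91% with *1110038B12Rik*, which was higher (0.74, SE 0.17, adjusted p = 0.0019), and *Sgsh* 5.88% with *Slc26a11* (0.89, SE 0.29, adjusted p = 0.0203).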

How the data were processed

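RNA of 23 libraries (12 CRE, 11 RFP) was sequenced by the authors, who aligned reads to GRCm39 (Ensembl release 110) with STAR 2.7.8a and counted them per gene with featureCounts 1.5.0-p1, per the submitters' processing notes and the study's methods. The deposited unit is counts per Ensembl gene, not normalized. Multi-mapping and strand settings are not given in the sources used here. Names, exon lengths and overlaps came from GENCODE M39 of the same build.

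Here, 21 libraries (all but CRE 3-3 and RFP 3-2) were compared with edgeR 4.0.16 in R 4.3.3 (filterByExpr, TMM, robust quasi-likelihood fit) with no block, after a test on simulated data. CPM use TMM factors, and SE is the log2 fold change over the square root of F. Methods instead removed CRE 1-3 and CRE 3-3, which was run as an alternative. Other alternatives were DESeq2 1.42.0, scaling, filters, blocks, sums per culture, omitted libraries and cultures, and removal of the GC trend. Of them 3 were chosen after seeing the data. All members are named, and of each other list the 2 called higher and 2 called lower with the smallest p. *Tmem119*, *Ctss*, the overlapping genes and the neighbours of *Ctsh* were added after their values were seen. Members and lists were chosen with earlier results of these data known. Intervals cover 95%.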

Additional observations from a re-analysis of the deposited data

Results flagged for a closer look

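In the 10 RFP libraries, the highest or lowest library lay far from the rest for 7 of the 53 genes examined (31 lysosome genes, *Nedd8* and 21 others named), where chance gives about 1 in 20 groups. RFP 2-4, one of the libraries that stood apart in GC trend, was the far library for 4 of them. It was lowest for *Lamp2* (36.2 CPM, the others 89.7 to 136), *Ids* (359 CPM, the others 545 to 679) and *Ulk2* (116 CPM, the others 150 to 178), and highest for *Tfeb* (7.36 CPM, the others 1.44 to 4.54). RFP 2-3 was highest for *Cln3* (34.5 CPM, the others 5.85 to 20.2) and for *Fuca1* (30.3 CPM, the others 14.0 to 22.5). RFP 1-1 was highest for *Ctsh*, at 1.29 CPM against 0 to 0.545 in the others.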

How the results depend on the processing

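Of the 21 called genes, 12 were called in all 39 alternatives run: *Ctsa*, *Ctsb*, *Ctsd*, *Ctsh*, *Ctsz*, *Hexa*, *Gaa*, *Lipa*, *Npc2*, *Psap*, *Grn* and *Tfe3*. The other 9 were called in 27 to 38. Of the 10 not called, *Asah1* was called in 11, *Atp6v0d1* in 6 (as lower), *Tfeb* in 5 and *Tpp1* and *Cln3* in 1 each. The count of called genes stayed within 1.5 times of 21, from 19 to 23 when 1 library was left out, and at 21, 14 and 18 without cultures 1, 2 and 3. It was 24 with the GC trend removed on the 19 libraries. These counts take both directions together, and no share over all genes tested stands beside them. *Atp6v0d1* was counted as lower without culture 1 (-0.29, adjusted p = 0.0389) and without CRE 1-3 (-0.29, adjusted p = 0.00301). The same held with the GC trend removed on the 19 libraries (-0.28, adjusted p = 9.62e-04). The same-culture correlations of deviations were 0.0273, 0.0207 and 0.1413, and those between different cultures -0.1907 to 0.1408. With the 19 libraries the same-culture values were 0.0762, 0.1727 and 0.0779, above the -0.1431 to 0.0595 between different cultures. All were small, and the numbers were not taken to pair the samples in the main fit. With culture as a replicate block 21 genes were called, and with culture and library number together as the block 16, where *Gla*, *Glb1*, *Gusb*, *Lamp2* and *Npc1* had adjusted p of 0.0519 to 0.138. Calls were also lost by *Ctsl*, *Gla*, *Scarb2* and *Npc1* without culture 2 (adjusted p 0.062, 0.115, 0.0682 and 0.052), and by *Ctsf* and *Npc1* without culture 3 (0.0505 and 0.0533). With library totals alone, 2949 of all genes were higher and 1533 lower, against 2374 and 1996, and of the other pathway genes 52 were higher and 5 lower. *Sort1*, *Gnptab* and *Gabarap* were not called with library totals (adjusted p 0.06, 0.0617 and 0.179). Of the other pathway genes 54 were called in either direction, 48 to 68 without 1 library, and 31 and 34 without cultures 2 and 3. Called genes did not change sign. The values near 0 did: *Neu1* was at -0.08 with the libraries of Methods, -0.07 with the 19 libraries (and with them and the culture block), -0.15 with both blocks, -0.03 and -0.04 for sums per culture without and with the block, -0.08 without culture 1, -0.03, -0.04 and -0.11 with the GC trend removed (alone, with the block, on 19 libraries), and -0.09 to 0.08 without 1 library. *Atp6v1h* was at -0.05, -0.07 and -0.10 (Methods, 19 libraries, 19 with block), -0.02 with both blocks, -0.05 and -0.07 for sums, -0.04 and -0.09 without cultures 1 and 2, -0.01 with the GC trend removed on 19 libraries, and -0.03 to 0.06 without 1 library. With the GC trend removed on the 21 libraries *Atp6v1h* was at 0.66 (SE 0.40, adjusted p = 0.206), its largest value. *Man2b1* was at 0.00 without culture 3. The cause was not tested.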
